A study of Mus musculus with 14 samples.

Results

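The genes that encode the proteins of the mitochondrial ribosome were followed through mouse 2-cell embryos that developed with or without lactate. They were taken by symbol from the table of gene counts: every gene named Mrpl or Mrps followed by a number, with or without a letter. This gave 78 of 56923 genes. By the subunit in which the protein is known to sit, 30 were large-subunit proteins shared with bacterial ribosomes, 21 were large-subunit proteins particular to mitochondria, 16 and 10 were the corresponding small-subunit proteins, and Mrps36 was set apart because it is now known as a component of the 2-oxoglutarate dehydrogenase complex.

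The 14 libraries came from embryos of ICR mice, with 5 embryos pooled per library and 2 libraries per condition. Early 2-cell embryos were collected 30 h and late 2-cell embryos 54 h after hCG. G&N embryos grew in mKSOM medium with 5 μM Gne140, which inhibits the lactate dehydrogenases LDHA and LDHB, 50 μM NMN, a precursor of NAD+, and 10 mM lactate. G&N-L embryos received the same inhibitor and NMN with lactate withdrawn from 24 h after hCG. In the G&N-L + Lac-CoA group, zygotes were injected with lactyl-CoA, the donor for lactylation, and then held in G&N-L medium. H3K18R embryos came from zygotes injected with histone H3 mRNA at 200 ng/μL in which lysine 18 cannot be lactylated, and WT embryos from zygotes injected with wild-type H3 mRNA. No inhibitor was described for the last 2 groups, and their medium was not named. They differ from the G&N groups in injection and, as far as described, in medium. The treatment labels of the early libraries did not match their titles: those titled G&N were labelled Gne140 alone and those titled G&N-L Gne140 with NMN. The mutant columns were headed K18A. Groups followed the titles, and every comparison with early libraries depends on that choice. The sources did not say which embryo collections the libraries came from, so p-values measure only the spread between these libraries.

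Mitochondria make a small set of respiratory-chain subunits on ribosomes of their own. The ribosomal RNAs of these particles come from the mitochondrial genome, whereas all of their proteins are encoded in the nucleus, translated in the cytosol and imported. In the mouse, RNA stored in the oocyte is cleared as the embryonic genome is switched on during the 2-cell stage, so the transcripts counted here can be of maternal or embryonic origin and the counts do not separate these sources. RNA amounts are relative to the library, and less RNA per embryo cannot be told apart from fewer embryos or cells recovered.

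Library totals ranged from 20350427 to 61275465 counts, at which 3 counts amount to 0.049 to 0.147 CPM (counts per 1000000 counts of the library). All libraries held the 7 oocyte markers, including Gdf9 and Bmp15, whose summed level was between 19433 and 25895 CPM in early embryos and between 3472 and 18799 CPM in late embryos. The 5 markers of the 2-cell stage, of which Zscan4d is a member, summed to 11.8 to 70.1 CPM in early and 714 to 2322 CPM in late libraries. The 15 cumulus and granulosa markers summed to 7.99 to 46.6 CPM, and 6 to 14 of them had no count in a given library. The histone H3 gene H3c1 held 43643 and 83390 counts in the replicates of H3K18R, against 4 and 3 in those of WT. Late G&N embryos, which were not injected with H3 mRNA, held 6 and 2. The counts of H3c1 therefore show injected mRNA in H3K18R embryos only, and the wild-type mRNA in WT embryos was not checked further. Replicates of a condition differed by a median of 0.29 to 0.47 on the log2 scale over the members, and by 0.34 to 0.55 over all genes.

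Of the 78 members, 71 had more than 3 counts in every library and 54 had at least 100. Mrpl53 had no count in any library. Mrps34 had no count in the 4 early libraries and 3 to 37 counts in the late ones. For 10 members, over 50% of the bases of the canonical transcript overlap exons of another gene, as for Mrps25 with Nr2c2 and Mrps18a with Rsph9, and the strand setting of the counting was not given, so reads of both genes cannot be told apart there. Members with processed pseudogenes in the table, such as Mrpl48 and Mrps36, may share reads with them.

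Together the members took 0.251% to 0.441% of all counts. Their summed level was 4034 ± 386 CPM in early G&N embryos and 4061 ± 447 in early G&N-L embryos (mean ± SD, n = 2 throughout). It was 2507 ± 279 CPM in late G&N, 2390 ± 154 in late G&N-L and 2572 ± 68.4 in late G&N-L + Lac-CoA embryos. The H3K18R embryos stood at 3072 ± 242 CPM and the WT embryos at 4130 ± 316 CPM. Every late G&N, G&N-L and Lac-CoA library therefore lay below every early library, while the WT libraries, at 3906 and 4353 CPM, lay within the early range of 3744 to 4377 CPM. The place of the WT libraries depended on the scaling. As shares of all counts, without TMM, they held 0.405% and 0.441%, above all early libraries, at 0.311% to 0.362%. The late G&N, G&N-L and Lac-CoA libraries, at 0.251% to 0.295%, lay below the early ones in these shares too.

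The sum was made up differently in early and in WT embryos. Mrps14, Mrpl40, Mrpl48 and Mrps33, the members with the highest mean CPM over the 14 libraries, held 37.5% ± 5.0 of the sum in early G&N embryos and 17.3% ± 2.1 in WT embryos. These 4 did not move alike: Mrps33 stood at 360 and 372 CPM in early G&N and at 95.4 and 98.2 CPM in WT embryos, and Mrpl48 and Mrps14 were also lower in WT, at 86.1 and 64.0 CPM and at 224 and 175 CPM, whereas Mrpl40 stood at 270 and 231 CPM in early G&N and higher, at 330 and 352 CPM, in WT embryos. Per kilobase of canonical transcript, Mrps33 led in early embryos, at 310 CPM per kb with lactate and 406 without it. Mrpl42 and Mrpl22 led in late G&N embryos, at 117 and 108 CPM per kb. In WT embryos, Mrpl34 and Mrpl22 led, at 379 and 307 CPM per kb.

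**Figure D1:**
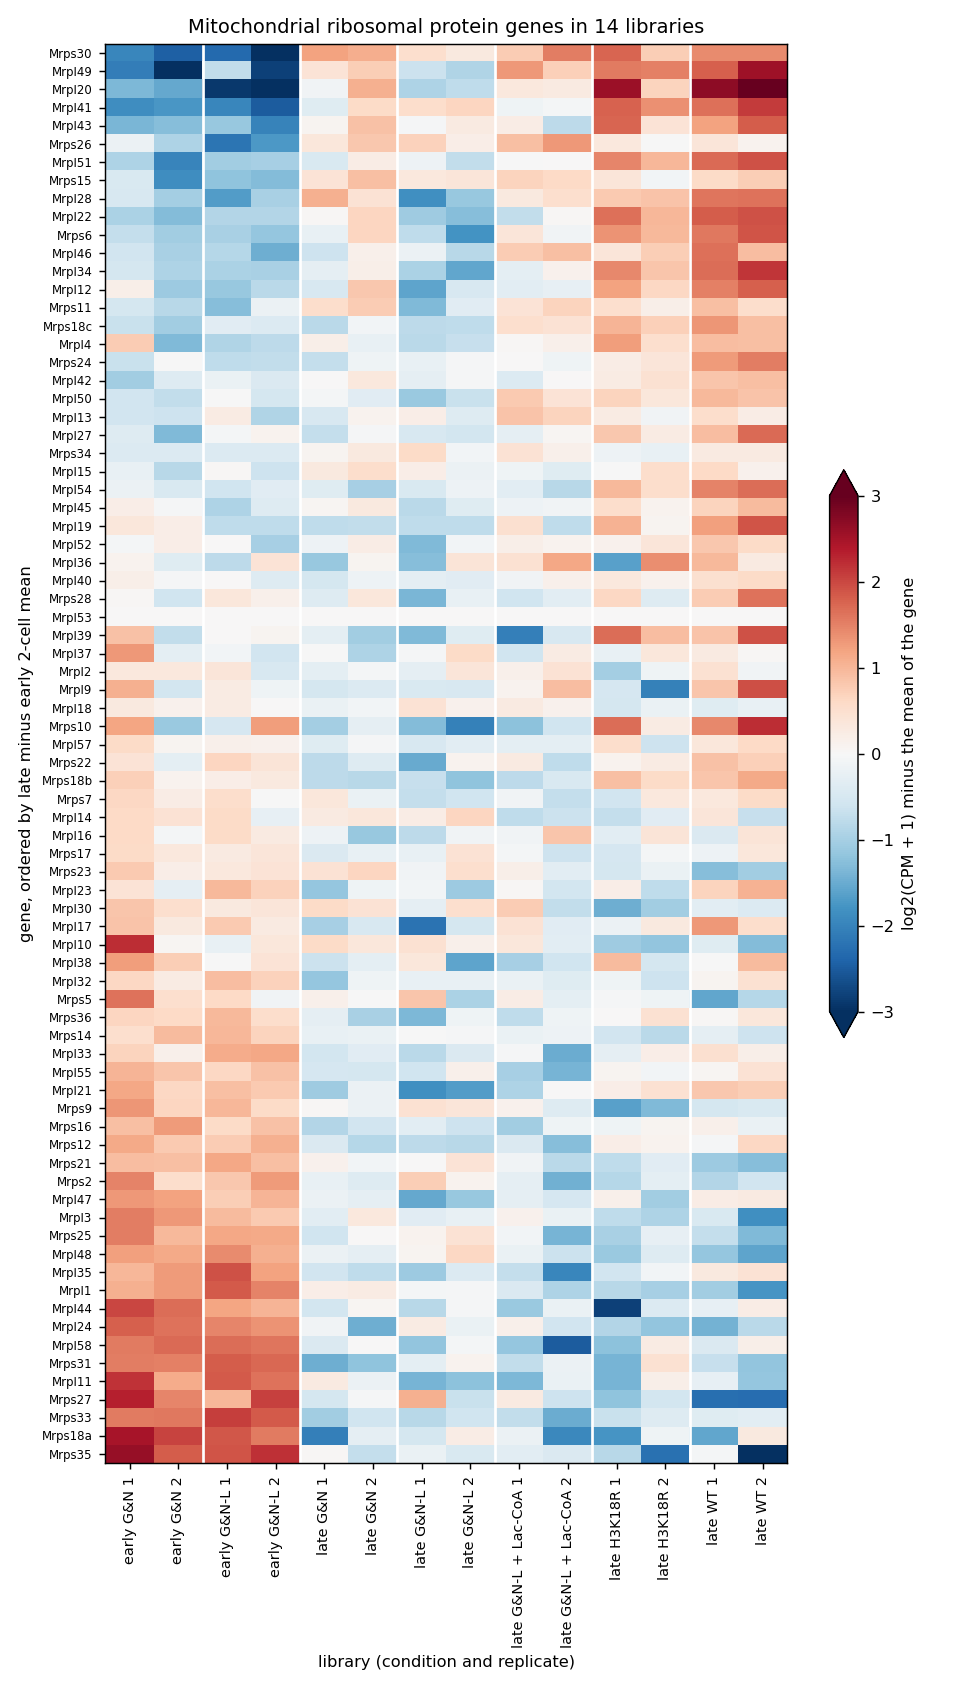
Each row is 1 of the 78 genes and each column 1 of the 14 libraries. Colour is log2(CPM + 1) minus the mean of that gene over the libraries, with values beyond 3 drawn at the end colour, and genes are ordered by the late minus early mean. Genes at the top, such as Mrps30 and Mrpl20, were low in the 4 early libraries, and those at the bottom, such as Mrps33 and Mrps35, were high in them.

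The comparison of late with early embryos showed how the members moved over the 2-cell stage. In G&N embryos, 53 of 77 members tested were lower and 24 higher in the late stage, with a median log2 fold change of −0.82, against 0.08 over all 19443 genes. With edgeR's quasi-likelihood test and Benjamini-Hochberg adjustment (adjusted p below 0.05), 13 members fell and 3 rose, where 5.47% of all genes tested fell and 8.18% rose. The members that rose were all large-subunit proteins: Mrps30, which sits in the large subunit despite its symbol, Mrpl49, a mitochondria-specific subunit, and Mrpl22, which lines the tunnel through which the nascent chain leaves.

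Mrps30 stood at 5.47 and 3.59 CPM in early G&N embryos and at 56.4 and 52.5 CPM in late ones. Mrpl49 stood at 5.16 and 1.48 CPM early and at 33.8 and 42.9 CPM late, and Mrpl22 at 31.7 and 24.8 CPM early and at 64.7 and 97.8 CPM late. For each of the 3 genes, both late libraries were above both early ones. The log2 fold changes were 3.53 ± 0.39 (SE) for Mrps30 (adjusted p = 0.00981, edgeR), 3.51 ± 0.66 for Mrpl49 (adjusted p = 0.0303, edgeR) and 1.46 ± 0.33 for Mrpl22 (adjusted p = 0.0471, edgeR).

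The members that fell were 5 of the 10 small-subunit proteins particular to mitochondria, 1 of the 16 other small-subunit proteins, 4 of the 30 conserved and 3 of the 20 mitochondria-specific large-subunit proteins tested, and these shares were not compared by a test. The 5 were Mrps25, Mrps27, Mrps31, Mrps33 and Mrps35. Mrps31 stood at 48.3 and 47.0 CPM early and at 5.14 and 6.38 CPM late, a log2 fold change of −3.12 ± 0.38 (adjusted p = 0.0116, edgeR). Mrps33 fell from 360 and 372 CPM to 58.6 and 80.6 CPM, a log2 fold change of −2.47 ± 0.29 (adjusted p = 0.0108, edgeR). Mrps27, a pentatricopeptide repeat protein that binds RNA, fell from 77.3 and 42.0 CPM to 9.88 and 14.2 CPM. Mrps35 fell from 58.9 and 33.7 CPM to 9.06 and 4.98 CPM. In all 4 genes the early and late libraries did not overlap.

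Large-subunit members that fell included Mrpl24, from 82.4 and 72.6 CPM to 21.4 and 7.64 CPM, although 70.5% of its transcript overlaps Mettl25b on the other strand. Mrpl44, which carries a ribonuclease III fold and is needed for assembly of the large subunit, fell from 36.1 and 28.6 CPM to 5.34 and 8.59 CPM. Mrpl58, a peptidyl-tRNA hydrolase that releases stalled chains, fell from 25.5 and 27.8 CPM to 5.64 and 8.01 CPM. Mrps16, a small-subunit protein shared with bacteria, fell from 44.7 and 57.9 CPM to 12.3 and 15.4 CPM. The log2 fold changes of these 4 genes lay between −2.48 and −1.98. The other members that fell were Mrpl35, Mrpl47, Mrpl48 and Mrpl55. These calls rested on the libraries at hand: with 1 late G&N library left out, 0 members passed without replicate 1 and 1 without replicate 2, and with 1 early G&N library left out, 8 passed without replicate 1 and 9 without replicate 2. The members past an unadjusted p below 0.05 with a log2 fold change beyond 0.5 were 42, where 34.4% of all genes were, and numbered 23 to 34 with a library left out. The median was −0.34 without early G&N replicate 1.

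The promoters of the members named above are shown as the 150 bases just before the start of the Ensembl canonical transcript, as those of the 3 members that rose in G&N embryos and of the 3 with the largest falls among the members past the test there. The first 3 genes rose and the last 3 fell. The sequences were read from GRCm39 on the strand of the gene, 5′ to 3′, at Mrps30 chr13:118523839-118523988 (minus strand), Mrpl49 chr19:6107872-6108021 (minus strand), Mrpl22 chr11:58062325-58062474 (plus strand), Mrps31 chr8:22901213-22901362 (plus strand), Mrps35 chr6:146944076-146944225 (plus strand), Mrpl24 chr3:87826663-87826812 (plus strand). Capitals mark a match, on either strand, to the letters searched as the core of an ETS site (CCGGAAG), an NRF1 site (GCGCATG) or a YY1 site (AAGATGG), factors known to bind many promoters of nuclear genes for mitochondrial proteins.
Mrps30: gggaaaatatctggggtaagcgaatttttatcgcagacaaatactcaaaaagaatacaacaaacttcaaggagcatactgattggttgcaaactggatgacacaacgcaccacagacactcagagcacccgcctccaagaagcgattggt
Mrpl49: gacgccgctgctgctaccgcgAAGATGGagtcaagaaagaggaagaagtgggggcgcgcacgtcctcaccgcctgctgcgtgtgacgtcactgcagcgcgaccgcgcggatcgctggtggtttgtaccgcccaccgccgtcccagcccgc
Mrpl22: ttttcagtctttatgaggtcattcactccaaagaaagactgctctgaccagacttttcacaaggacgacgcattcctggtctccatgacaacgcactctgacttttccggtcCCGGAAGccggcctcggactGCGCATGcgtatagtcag
Mrps31: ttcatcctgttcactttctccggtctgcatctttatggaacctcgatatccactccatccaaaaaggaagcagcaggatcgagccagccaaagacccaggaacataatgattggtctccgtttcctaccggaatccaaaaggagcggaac
Mrps35: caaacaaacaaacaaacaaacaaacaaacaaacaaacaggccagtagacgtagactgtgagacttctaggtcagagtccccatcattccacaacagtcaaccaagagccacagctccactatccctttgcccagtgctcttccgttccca
Mrpl24: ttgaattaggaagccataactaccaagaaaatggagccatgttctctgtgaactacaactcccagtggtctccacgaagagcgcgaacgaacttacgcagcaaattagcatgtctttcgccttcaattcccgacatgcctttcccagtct

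Mrpl22 held CCGGAAG 38 bases and GCGCATG 18 bases before the start, and Mrpl49 held AAGATGG 129 bases before it. The other 4 windows held none of these letters. Over windows from 250 bases before to 50 bases after the start, 24 of the 78 members held CCGGAAG, which is 30.8%, against 10.3% of 21757 protein-coding genes. Mrps35, which fell, was among these 24, with the letters outside its printed bases. GCGCATG was in 9.0% of the members and 5.0% of all promoters, and AAGATGG in 11.5% and 5.7%. The SP/KLF letters GGGCGG (42.3% and 42.5%) and the E-box CACGTG (6.4% and 7.8%) were about as frequent in the members as in all promoters. The cytosolic ribosomal protein genes held CCGGAAG in 30.2% of their promoters. A match describes these letters only, and no binding was measured here.

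Without lactate, 55 of 75 members tested were lower and 20 higher in late than in early embryos, with a median log2 fold change of −0.61 against 0.15 over all 18604 genes. Here 15 members fell and 2 rose by edgeR, where 5.87% of all genes tested fell and 5.97% rose. Mrpl41, a mitochondria-specific large-subunit protein, rose from 8.42 and 5.39 CPM to 51.0 and 55.8 CPM (log2 fold change 2.90 ± 0.32, adjusted p = 0.0111, edgeR). Mrps26, of the small subunit, rose from 5.19 and 7.66 CPM to 45 and 31.8 CPM (2.51 ± 0.41, adjusted p = 0.0256, edgeR). For both genes every late library was above every early library of all conditions.

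Mrps33 had the smallest adjusted p among the members without lactate, at 516 and 444 CPM early and 68.0 and 80.2 CPM late (log2 fold change −2.75 ± 0.17, adjusted p = 0.00489, edgeR). Mrpl21 fell from 48.3 and 44.2 CPM to 6.29 and 7.18 CPM, and Mrpl47, which sits at the exit of the tunnel, from 45.2 and 54.7 CPM to 8.53 and 11.6 CPM. The early and late libraries of these 3 genes were far apart. Mrps35 (log2 fold change −2.59 ± 0.34), Mrpl35 (−2.39 ± 0.34) and Mrps31 (−1.98 ± 0.27) also fell. Mrps18a, a large-subunit protein related to the small-subunit protein S18, fell from 30.9 and 24.9 CPM to 5.10 and 9.32 CPM. Mrpl11, of the base of the stalk, fell from 338 and 158 counts to 0 and 5 counts, and no fold is given at so few counts. The other members that fell were Mrpl1, Mrpl3, Mrpl24, Mrpl32, Mrps12, Mrps14 and Mrps25. With a library left out, 7 members passed without either early G&N-L replicate, 1 without late G&N-L replicate 1 and 3 without late G&N-L replicate 2.

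Of the 16 members that passed with lactate and the 17 without it, 7 were common, which is 43.8% and 41.2% of these lists, and all 7 moved the same way: Mrpl24, Mrpl35, Mrpl47, Mrps25, Mrps31, Mrps33 and Mrps35 fell. Among all 17126 genes with a test in both media, 1308 passed in each and moved the same way, which is 50.9% of those called with lactate and 59.8% of those called without it, so the members' shares were not above those of all genes. Whether the stage change itself differed with lactate was tested as an interaction over the 8 libraries. By edgeR 0 of 77 members passed, and 8 had an unadjusted p below 0.05, where 7.55% of all genes did. DESeq2 called 1 member, and the share of all genes it called was not computed. The 8 were past the unadjusted criterion, 6 of them with a smaller rise or a larger fall without lactate, where 3.98% of all genes lay in that direction. The other direction held 2 members and 3.57% of all genes. Mrpl22 had the smallest p, at 33.5 and 33.7 CPM early and 29.4 and 25.2 CPM late without lactate, which is an interaction of −1.87 ± 0.42 on the log2 scale (adjusted p = 0.536, edgeR). Mrpl49 (−2.86 ± 1.08), Mrpl28 (−1.84 ± 0.75), Mrpl21 (−1.31 ± 0.52) and Mrpl50 (−1.15 ± 0.46) had the same sign, as did Mrpl11. Mrps31 (1.09 ± 0.43) and Mrps26 (1.36 ± 0.58) had the other, and none of the 8 passed the test.

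Over all conditions, 21 of the 78 members were higher in every early library than in every late one, which is 26.9%, against 9.03% of the 23587 genes that reached 1 CPM in a library. The reverse held for 8 members, or 10.3%, against 12.4% of all genes: Mrpl20, Mrpl41, Mrpl43, Mrpl51, Mrps15, Mrps26, Mrps30 and Mrps34. The members were not held to the limit of 1 CPM. Mrps34, which reached 0.962 CPM at most, and Mrpl53, with no count, would not have met it. The late WT embryos were also set against early G&N embryos, a comparison added after the data were seen. In it stage, injection and, as far as described, medium differ together. There 16 members fell and 19 rose (18.8% and 20.9% of all genes), and the median over 77 members was 0.08. Mrpl20, of the large subunit, stood at 4.06 and 3.43 CPM early and at 82.7 and 117 CPM in WT embryos (log2 fold change 4.67 ± 0.37, adjusted p = 0.00400, edgeR). Mrpl51 went from 33.0 and 15.3 CPM to 206 and 241 CPM, and Mrps27 from 77.3 and 42.0 CPM to 2.26 and 2.19 CPM, both past the test. Mrps35 stood at 8.44 and 0 CPM in WT embryos and did not pass (adjusted p = 0.230, edgeR). Without early G&N replicate 1 the median was 0.51, and 18 members passed without WT replicate 2.

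These stage values depended on how libraries were scaled. In G&N embryos the median of all genes moved from 0.08 with TMM to 0.19 with the size factors of DESeq2 and to 0.46 with library totals, and the median of the members moved from −0.82 to −0.71 and −0.48. Relative to the median of all genes, the members lay lower in each case. In G&N-L embryos, library totals put 42 of 75 members lower, with a median of −0.24 against 0.51 for all genes.

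**Figure D2:**
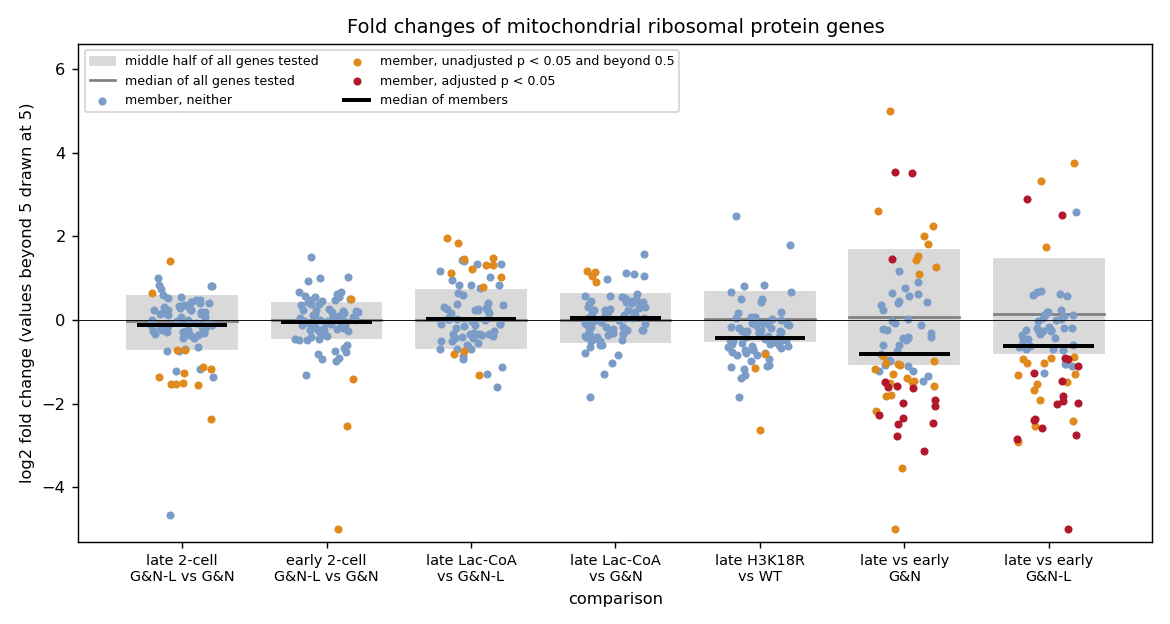
Log2 fold changes of the members (points) in 7 comparisons, with the median of the members (black bar), and the interquartile range (grey box) and median (grey line) of all genes tested. Members past the adjusted threshold, in red, appear only in the comparisons of late with early embryos, where the member medians are −0.82 and −0.61, and the H3K18R comparison has a member median of −0.42.

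The effect of withdrawing lactate was read at the late 2-cell stage from G&N-L set against G&N embryos. No member passed the test by edgeR (0 of 76), as was the case for all 19481 genes. DESeq2 called 3 members, and the share of all genes it called was not computed. With an unadjusted p below 0.05 and a log2 fold change beyond 0.5, 11 members were lower and 2 higher without lactate, where 7.63% of all genes were lower and 4.23% higher by this criterion. The 11 were 9 large-subunit proteins, among them Mrpl22 and Mrpl28, with Mrps6 and Mrps11 of the small subunit. Over all members, 42 were lower and 34 higher, where 51% of all genes were lower, and the median was −0.12 against −0.02 for all genes.

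Mrpl22 stood at 64.7 and 97.8 CPM in G&N and at 29.4 and 25.2 CPM in G&N-L embryos (log2 fold change −1.52 ± 0.30, adjusted p = 0.313, edgeR). Mrpl28, shared with bacterial ribosomes, stood at 39.8 and 25.4 CPM with and at 4.5 and 7.85 CPM without lactate (−2.36 ± 0.50, adjusted p = 0.313, edgeR). Mrpl49 stood at 33.8 and 42.9 CPM with and at 15.6 and 12.9 CPM without lactate (−1.37 ± 0.34, adjusted p = 0.324, edgeR). For each of these 3 genes the levels without lactate were the lower ones, and the gap between the groups exceeded the difference between replicates.

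Mrpl34, a small protein of the large subunit, stood at 53.4 and 73.0 CPM with and at 32.8 and 21.0 CPM without lactate. Mrpl20 stood at 11.1 and 26.1 CPM with and at 5.82 and 6.58 CPM without lactate, so the G&N replicates differed by more than the gap to the G&N-L libraries. Mrpl45, which anchors the ribosome to the inner membrane, stood at 93.7 and 110 CPM with and at 51.2 and 69.3 CPM without lactate. All 3 had groups that did not overlap, and their log2 fold changes were −1.18, −1.52 and −0.71. Mrpl47 (−1.12) and Mrps30 (−0.72), at 34.2 and 29.7 CPM without lactate, were also lower.

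The higher members were Mrps31, at 5.14 and 6.38 CPM with and 12.7 and 17.1 CPM without lactate (log2 fold change 1.42 ± 0.47, adjusted p = 0.340, edgeR), and Mrpl48, at 173 and 160 CPM with and 204 and 299 CPM without it (0.64 ± 0.25, adjusted p = 0.401, edgeR). Neither group of libraries overlapped for these genes. Counting every member whose libraries did not overlap, 21 were lower and 13 higher without lactate, where 23.5% and 20.2% of all genes tested were. The oocyte markers summed to 12803 and 14752 CPM in G&N and 16510 and 18799 CPM in G&N-L embryos. Btg4, the largest of them, stood at 7193 and 8625 CPM in G&N and at 11012 and 11747 CPM in G&N-L embryos. Both libraries without lactate were also higher for Gdf9 and Bmp15 but lower for Zp3 and Nlrp5, while Oosp1 and Mos overlapped. The part of these markers in the differences of the members was not tested. Late G&N replicate 2 decided the direction of the summary: without it, 2 members were lower and 4 higher past the criterion and the median was 0.12. Without late G&N-L replicate 1, 5 were lower and 2 higher.

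**Figure D3:**
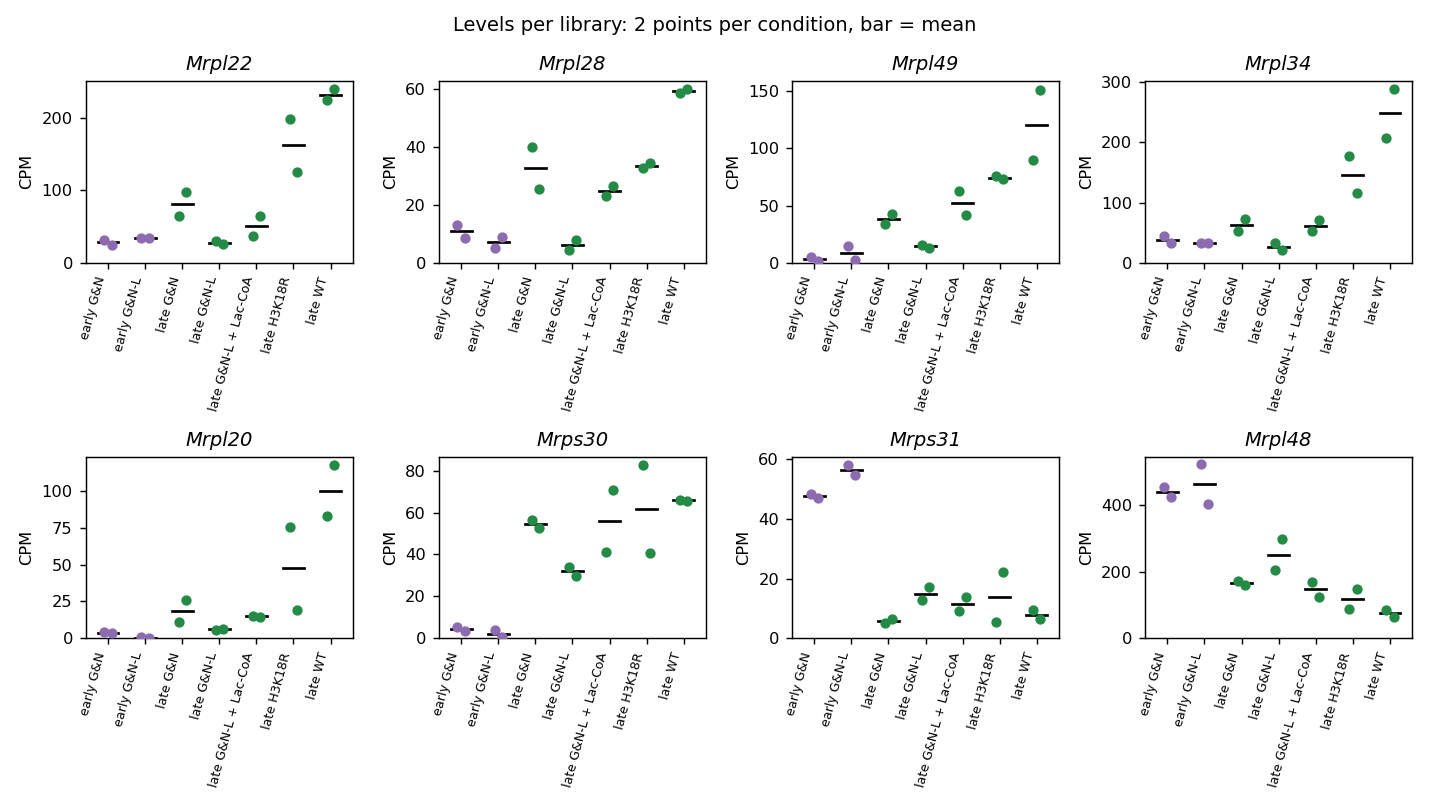
CPM of 8 members in each library, 2 points per condition with their mean as a bar, early embryos in purple and late embryos in green. Mrpl22, Mrpl28, Mrpl49, Mrpl34, Mrpl20 and Mrps30 had lower points at the late stage without lactate than with it, and Mrps31 and Mrpl48 had higher ones. Mrpl22 reaches 224 and 240 CPM in WT embryos.

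At the early 2-cell stage, 42 of 76 members were lower and 34 higher without lactate, where 50.5% of all genes were lower, and the median was −0.05. No member passed by edgeR or DESeq2, and 4 had an unadjusted p below 0.05 (4.52% of all genes), of which 3 were lower (2.69% of all genes by the criterion) and 1 higher (1.82%). Mrps26 stood at 24.0 and 13.9 CPM with and at 5.19 and 7.66 CPM without lactate (log2 fold change −1.40 ± 0.46, adjusted p = 1.0, edgeR). Mrpl20 stood at 4.06 and 3.43 CPM with and at 0.731 and 0.453 CPM without lactate, and Mrpl19 had 59 and 42 counts with and 0 counts in both libraries without it. Mrps33 was the 1 higher member, at 360 and 372 CPM with and 516 and 444 CPM without lactate. The groups of these 4 genes did not overlap, and of all members 10 were lower and 18 higher without overlap (17.1% and 16% of all genes). The median was 0.16 without early G&N replicate 1, and 10 members met the criterion without early G&N replicate 2.

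Injection of Lac-CoA was compared with G&N-L embryos without it. No member passed by edgeR (0 of 75), and 13 had an unadjusted p below 0.05, where 13.3% of all genes did. DESeq2 called 3 members, and the share of all genes it called was not computed. By the unadjusted criterion 10 members were higher and 3 lower with Lac-CoA, where 6.89% and 6.29% of all genes were. The 10 were 9 large-subunit proteins and Mrps18c. Without overlap of the libraries, 27 members were higher and 12 lower, where 23.4% and 23.5% of all genes were. Over all members, 35 were lower and 40 higher, where 50.4% of all genes were lower, and the median was 0.02 against −0.01 for all genes.

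Mrpl49 stood at 15.6 and 12.9 CPM in G&N-L and at 62.9 and 42.1 CPM in Lac-CoA embryos (log2 fold change 1.83 ± 0.35, adjusted p = 0.294, edgeR). Mrpl28 stood at 22.9 and 26.6 CPM with Lac-CoA, against 4.5 and 7.85 CPM without it (1.96 ± 0.46, adjusted p = 0.294, edgeR). Mrpl50, a mitochondria-specific large-subunit protein, stood at 18.2 and 25.1 CPM without and at 70.0 and 53.7 CPM with Lac-CoA (1.47 ± 0.32, adjusted p = 0.294, edgeR). In all 3 the libraries were apart by more than the replicates differed.

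Mrpl46 stood at 18.6 and 11.4 CPM without and at 36.5 and 40.4 CPM with Lac-CoA, Mrpl34 at 32.8 and 21.0 CPM and at 52.1 and 70.2 CPM, and Mrps18c at 5.38 and 5.45 CPM and at 14.4 and 13.7 CPM. For Mrps18c, 82.4% of the transcript overlaps other genes. Their log2 fold changes were 1.30, 1.13 and 1.32, those of Mrpl21 and Mrpl9 were 1.45 and 1.02, and the groups did not overlap. The lower members were Mrpl41 (51.0 and 55.8 CPM without, 32.2 and 33.7 CPM with Lac-CoA, −0.75), Mrpl48 (204 and 299 CPM without, 169 and 125 CPM with it, −0.82) and Mrpl14 (−1.32). Mrpl22 stood at 37 and 63.9 CPM with Lac-CoA (0.83 ± 0.35, adjusted p = 0.408, edgeR) and did not meet the criterion. The oocyte markers summed to 13910 and 9692 CPM with Lac-CoA, below both G&N-L libraries, and their part was not tested. Without Lac-CoA replicate 2, 3 members met the criterion, and without either G&N-L replicate 8 did.

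This comparison and the one of lactate withdrawal share the G&N-L libraries, so opposite signs in both are not independent. Lac-CoA embryos were also set beside G&N embryos, a comparison without the G&N-L libraries that shares the G&N libraries with that of lactate withdrawal. Again no member passed by edgeR (0 of 76) or DESeq2, and 4 had an unadjusted p below 0.05, where 8.51% of all genes did. By the criterion 4 members were higher and 0 lower with Lac-CoA, where 4.41% and 4.1% of all genes were. In sign, 37 members were lower and 39 higher (49.6% of all genes were lower), and without overlap of the libraries 7 were lower and 17 higher (19.2% and 20.1% of all genes). The 4 members past the criterion were Mrpl13, at 41.2 and 61.8 CPM in G&N and 105 and 92.3 CPM in Lac-CoA embryos (log2 fold change 1.04 ± 0.29, adjusted p = 0.500, edgeR), Mrpl9 (1.17 ± 0.38), Mrpl46 (1.15 ± 0.39) and Mrpl50 (0.91 ± 0.31). Of the members lower without lactate, Mrpl28 differed by −0.31 ± 0.38, Mrpl34 by 0.05 ± 0.30, Mrpl49 by 0.55 ± 0.33, Mrpl22 by −0.59 ± 0.37 and Mrpl20 by −0.22 ± 0.51 between Lac-CoA and G&N embryos, all within about 2 SE of 0. These are not all of the 11 members lower without lactate. Mrpl45 stood at 80.2 and 82.8 CPM with Lac-CoA, below both G&N libraries at 93.7 and 110 CPM, while Mrpl47 and Mrps30 overlapped. With 2 libraries a group, a difference within 2 SE of 0 does not show a return to the G&N level. Without Lac-CoA replicate 2, 2 members met the criterion.

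The H3K18R comparison asked whether histone H3 that cannot be lactylated at lysine 18 changes expression at the late 2-cell stage. Of 77 members tested, 62 were lower and 15 higher in H3K18R than in WT embryos, with a median log2 fold change of −0.42 against 0.03 over all 17704 genes, of which 48.6% were lower. In 35 members both H3K18R libraries lay below both WT libraries, and in 6 above them, where 19.3% and 19.6% of all genes did. No member passed by edgeR, where 0.00565% of all genes did. DESeq2 called 1 member, and the share of all genes it called was not computed. By the unadjusted criterion 3 members were lower (2.67% of all genes) and 0 higher (3.77%). The median stayed between −0.48 and −0.36 under each alternative scaling, filter, test and left-out library.

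Mrpl9, shared with bacterial ribosomes, stood at 58.3 and 126 CPM in WT and at 22.7 and 7.19 CPM in H3K18R embryos (log2 fold change −2.62 ± 0.70, adjusted p = 0.734, edgeR). Mrps24, at the entry of the mRNA channel, stood at 53.0 and 63.5 CPM in WT and at 24.8 and 27.7 CPM in H3K18R embryos (−1.15 ± 0.33, adjusted p = 0.734, edgeR). Mrpl28 stood at 58.5 and 59.9 CPM in WT and at 32.6 and 34.4 CPM in H3K18R embryos (−0.82 ± 0.31, adjusted p = 0.746, edgeR). For Mrps24 and Mrpl28 the replicates were close and the groups well apart, whereas the Mrpl9 replicates differed widely within each group.

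Several other members had groups apart. Mrpl20 (−1.07 ± 0.65), Mrps9 (−1.11 ± 0.58), Mrpl23 (−1.18 ± 0.59) and Mrps28 (−1.09 ± 0.52) were lower by more than Mrpl28, with larger errors, and did not meet the criterion. Mrpl34 stood at 208 and 289 CPM in WT and at 177 and 116 CPM in H3K18R embryos, Mrpl12, the stalk protein that also contacts the mitochondrial RNA polymerase, at 97.5 and 118 CPM and at 78.1 and 51.9 CPM, and Mrpl22 at 224 and 240 CPM and at 199 and 126 CPM. Mrpl49 (−0.69 ± 0.35) and Mrpl51 (−0.55 ± 0.30) were lower by a similar amount. The members of 1 library are not independent replicates of the condition. Mrps5 differed with the other sign, at 39 and 38 counts in H3K18R and 0 and 20 counts in WT, and no fold is given at so few counts. The largest other differences of that sign were those of Mrps27 (1.80), Mrps23 (0.83) and Mrps31 (0.81), and none of these members met the criterion. The oocyte markers summed to 3909 and 8031 CPM in H3K18R and 3472 and 3616 CPM in WT embryos, and their part was not tested. Without H3K18R replicate 1, 17 members met the criterion, 9 without H3K18R replicate 2 and 1 without WT replicate 2.

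Members were next grouped by late WT against early G&N embryos, in which stage, injection and, as far as described, medium differ together. These classes use no late G&N, G&N-L or Lac-CoA library. They are not those of late against early G&N embryos, where 3 members rose and 13 fell. Of the 19 members that rose in WT against early G&N embryos, 15 were lower in G&N-L than in G&N embryos, with a median log2 fold change of −0.44. Of the 16 that fell, 10 were higher, with a median of 0.24, and the 41 others tested had a median of −0.01. All genes of the same classes had medians of −0.64, 0.28 and −0.00. With Lac-CoA against G&N-L, the medians were 0.76 over members that rose and −0.51 over those that fell, and those of all genes were 0.67 and −0.54. The 40 members not called had a median of 0.16, against −0.04 for all genes of that class. In the classes that rose and fell, the medians of the members had the sign of those of all genes, the difference between them was not tested, and both comparisons share the late G&N-L libraries. The near-zero medians over all members joined these classes of opposite sign with the larger class not called. How far each class set them was not tested. CCGGAAG was in the promoters of 8 of the 19 that rose, 5 of the 16 that fell and 10 of the 42 not called.

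**Figure D4:**
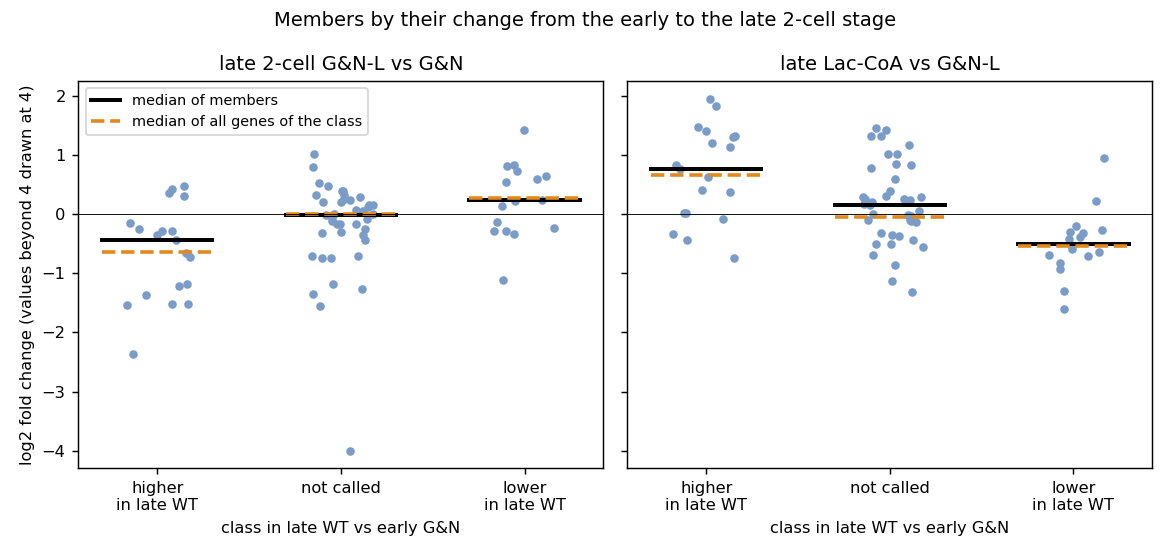
Log2 fold change of each member (points) without lactate (left) and with Lac-CoA (right), by its class in late WT against early G&N embryos. Stage, injection and, as far as described, medium differ together in that comparison. Black bars are medians of members and dashed orange bars medians of all genes of the class. In the left panel the members that rose have a median of −0.44 and those that fell 0.24, and in the right panel the signs are the other way round, with 0.76 and −0.51.

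The proteins of the cytosolic ribosome, which translates the nuclear mRNAs, served as the other ribosome of the same cells. In G&N embryos, 51 of its 90 genes tested rose from the early to the late stage and 0 fell, with a median log2 fold change of 2.76, beside 3 risen and 13 fallen members with a median of −0.82. Of all genes tested, 8.18% rose and 5.47% fell. Without lactate at the late stage, 85 of 90 cytosolic genes were lower with a median of −1.11, beside 42 of 76 members with a median of −0.12. Of all genes, 51% were lower there. With Lac-CoA the medians were 0.91 and 0.02. In H3K18R embryos both lists lay lower than WT, 88 of 90 cytosolic genes with a median of −0.61 and 62 of 77 members with −0.42. In that comparison 48.6% of all genes were lower. The 78 nuclear genes of the respiratory chain had medians of 0.01 over the stage in G&N embryos, −0.14 without lactate and −0.34 in H3K18R embryos, where 61 of 78 were lower. The differences between the lists were not tested.

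**Figure D5:**
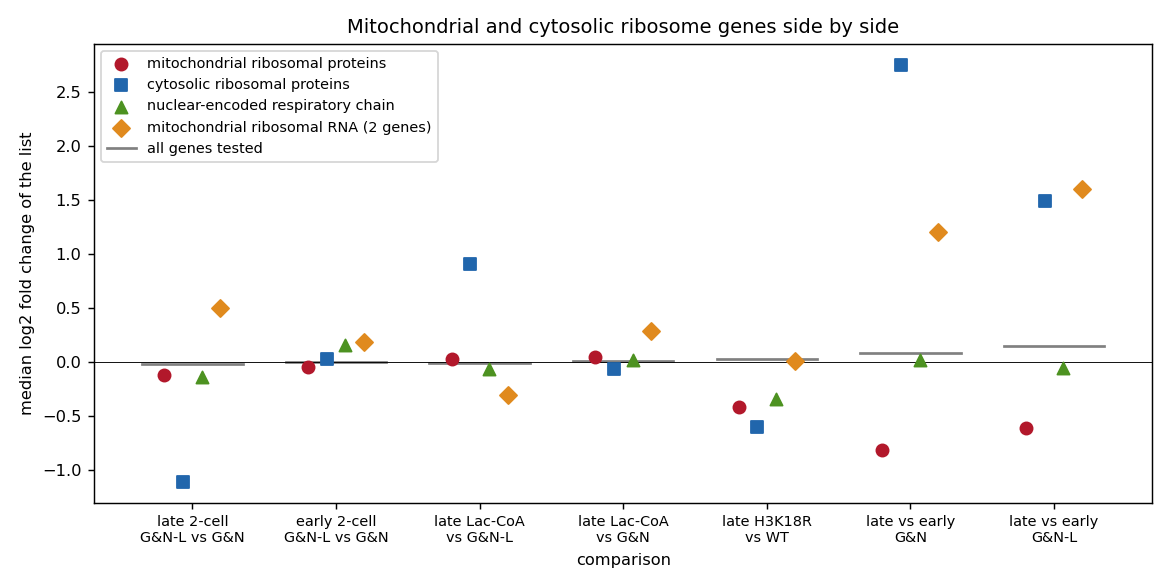
Median log2 fold change of the mitochondrial ribosomal protein genes, cytosolic ribosomal protein genes, nuclear respiratory-chain genes and the 2 mitochondrial ribosomal RNA genes in 7 comparisons, with the median of all genes tested as a grey line. Over the stage in G&N embryos the cytosolic list is at 2.76 and the mitochondrial ribosomal proteins at −0.82, and in H3K18R embryos both are below 0.

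The RNAs of the mitochondrial ribosome were higher in late than in early embryos. The large-subunit RNA mt-Rnr2 stood at 4880 and 3872 CPM in early and at 14596 and 12619 CPM in late G&N-L embryos, and rose by 1.58 ± 0.15 on the log2 scale (adjusted p = 0.00780, edgeR). The small-subunit RNA mt-Rnr1 rose by 1.62 ± 0.23 (adjusted p = 0.0181, edgeR). In G&N embryos the log2 fold changes were 1.19 ± 0.40 and 1.21 ± 0.46, and neither passed. How the libraries selected RNA would bear on these levels and was not tested.

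Subunits of the mitochondrial ribosome that carry other names moved in both directions over the stage. Dap3, the GTP-binding protein of the small subunit, fell from 279 and 171 CPM to 40.8 and 42.7 CPM in G&N embryos (log2 fold change −2.48 ± 0.29, adjusted p = 0.0109, edgeR) and also fell without lactate (−1.85 ± 0.24, adjusted p = 0.0152, edgeR). Aurkaip1, also of the small subunit, rose from 12.2 and 6.71 CPM to 45.3 and 49.2 CPM in G&N embryos (2.28 ± 0.40, adjusted p = 0.0260, edgeR). It stood at 18 and 13.4 CPM in late G&N-L embryos, below both late G&N libraries, and that difference did not pass (−1.53 ± 0.32, adjusted p = 0.313, edgeR). Ptcd3, a pentatricopeptide repeat protein at the mRNA entry, fell without lactate (−1.24 ± 0.18, adjusted p = 0.0198, edgeR). In G&N embryos it differed by −0.67 ± 0.31 and did not pass, and the interaction was −0.62 ± 0.36 (adjusted p = 0.715, edgeR). Chchd1 and Gadd45gip1 did not pass in either.

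Of 28 assembly factors, 27 were found and 24 tested over the stage in G&N embryos, where 5 fell and 3 rose (5.47% and 8.18% of all genes). Mterf4, which targets the methyltransferase Nsun4 to the large subunit, fell (log2 fold change −4.56 ± 0.41), as did Nsun4 (−1.05 ± 0.23). Tfb1m, which methylates the small-subunit RNA, also fell (−2.77 ± 0.53), while Dhx30 (1.98 ± 0.39) and Mettl17 (1.81 ± 0.34) rose. Over the stage without lactate these named factors kept their direction, and none of them passed by edgeR. There 2 other assembly factors fell and 2 rose (5.87% and 5.97% of all genes), and the list had a median of 0.19. Of the 13 translation factors tested over the stage in G&N embryos, 3 fell and 0 rose, where 5.47% of all genes fell and 8.18% rose. The 3 were Mtif3, an initiation factor (−1.60 ± 0.34), Mtfmt, which formylates the initiator tRNA (−3.44 ± 0.66), and Tsfm, the exchange factor of the elongation factor Tu (−3.54 ± 0.69). Without lactate at the late stage, 3 of 14 translation factors were lower and 11 higher, where 51% of all genes were lower. The factors had a median of 0.53, and none passed by edgeR. Gfm1, the elongation factor that moves the ribosome along the mRNA, was among the lower ones (−1.35 ± 0.37, adjusted p = 0.332, edgeR).

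Some members with roles of their own remain. Mrpl10, which holds the stalk and overlaps another gene over 57.5% of its transcript, stood at 45.4 and 9.49 CPM in early G&N embryos, so these replicates stood far apart. Mrps12, of the decoding centre, stood at 26.7 and 20.8 CPM in early and 8.35 and 6.06 CPM in late G&N embryos, and at 20.4 and 25.7 CPM and 6.40 and 6.13 CPM without lactate, where it fell (log2 fold change −1.94 ± 0.39, adjusted p = 0.0393, edgeR). Mrps18b stood at 32.1 and 20.6 CPM in early and 10.6 and 10.4 CPM in late G&N embryos, and at 34.9 and 43.1 CPM in WT embryos. Mrps36 stood between 48 and 65.4 CPM in early and between 12.3 and 45.2 CPM in late embryos, and passed in no comparison of stage or treatment.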

How the data were processed

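RNA-seq counts of 14 libraries of mouse 2-cell embryos were used. Per the labels and methods, the authors used FastQC and Trim Galore on the reads, HISAT2 with mm39 for alignment and featureCounts for the number of reads per gene, and they deposited these as raw counts. The annotation release and strand setting are not given in the sources used here, and the study states 3 replicates per group where 2 were analysed here.

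Counts were tested in R 4.3.3 with edgeR 4.0.16 (filterByExpr, TMM, quasi-likelihood F test) on the libraries of each comparison, with Benjamini-Hochberg adjustment over all genes tested at 0.05. With 2 libraries a group, the smallest p of an exact permutation test is 0.333, and none was run. Levels are CPM scaled by TMM over all 14 libraries. Positions, canonical transcript lengths and overlaps came from GENCODE vM39 on GRCm39, which is the build mm39, and all 78 members matched. The script was tested on simulated counts. Alternatives were other scalings, filters, all libraries in 1 fit, DESeq2 1.42.0, a replicate block and each library left out. Late WT against early G&N embryos and the omission of overlapping members were added after the data were seen.

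The members and lists were chosen with earlier results of these data known. Members named in the stage comparisons were the 8 with the largest change per direction among those past the test. In other comparisons they were the 8 per direction with the smallest p among those past an unadjusted p of 0.05 and a log2 fold change beyond 0.5, and a fixed set with known roles was added. Other members were named after their values were seen. Depth limits precision for counting error only, and 3 counts is the floor used.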

Additional observations from a re-analysis of the deposited data

How the results depend on the processing

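For the members named by the rule, each in the comparison that named it, no fold change changed direction under the alternatives run. Of these values 633 kept their side of the threshold of their comparison and 241 kept their direction but no longer met it. Medians near 0 changed sign, as given with the left-out libraries. Where a library was left out, the lone library of that group was taken to vary like the other group. Shares of all genes were computed for the main edgeR fits only, so the counts of members under the alternatives have no such share beside them. DESeq2 called 3 members in late G&N-L against G&N, 3 in Lac-CoA against G&N-L, 1 in H3K18R against WT, 40 and 30 over the stage with and without lactate, and 1 in the interaction. Without a filter on low counts, the members called were 2 in late G&N-L against G&N, 1 in H3K18R, 29 over the stage in G&N embryos and 1 in the interaction, and the members past the unadjusted criterion were 7 in early G&N-L against G&N and 5 in H3K18R. At least 10 counts in every library gave 26 called over the stage in G&N embryos and a median of 0.55 in WT against early G&N. With all 14 libraries in one fit, 11 were called over the stage without lactate, and 6 in H3K18R and 5 in the interaction were past the criterion, against 5 in H3K18R with DESeq2. The size factors of DESeq2 left 8 past the criterion in late G&N-L against G&N and a median of 0.29 in WT against early G&N, which was 0.29 with DESeq2 too. Library totals gave medians of 0.13 for Lac-CoA against G&N-L, −0.48 and −0.24 over the stage with and without lactate and 0.44 for WT against early G&N, with 9 called over the stage in G&N embryos.

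Libraries with the same replicate number did not deviate together, with correlations of −0.0913 to 0.00489, so the numbers do not pair them. With the replicate block, 8 members were past the criterion in late G&N-L against G&N, 1 in early G&N-L against G&N and 4 in the interaction, 10 were called over the stage without lactate and 19 in WT against early G&N, and the median for Lac-CoA against G&N-L was 0.19.

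With each library left out in turn, members past the criterion numbered 6 to 9 in late and 2 to 10 in early G&N-L against G&N, 3 to 16 in Lac-CoA against G&N-L, 2 to 4 in Lac-CoA against G&N, 1 to 17 in H3K18R, 23 to 34 over the stage in G&N embryos and 4 to 11 in the interaction. Members called numbered 0 to 9 and 1 to 7 over the stage with and without lactate and 18 to 27 in WT against early G&N. Medians ranged from −0.21 to 0.12 and from −0.14 to 0.16 in late and early G&N-L against G&N, from 0.0413 to 0.23 in Lac-CoA against G&N-L, from −0.82 to −0.34 over the stage in G&N embryos, from −0.16 to 0.16 in the interaction and from −0.0834 to 0.51 in WT against early G&N. The cause of these shifts was not tested. Leaving out members that overlap other genes gave medians of −0.15 in late G&N-L against G&N and −0.41 in H3K18R. With 2 libraries per group the precision is limited by their number.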
